A study of Mus musculus with 58 samples.

Results

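The extraembryonic ectoderm (ExE) is the trophoblast tissue of the early postimplantation mouse embryo that sits between the epiblast and the ectoplacental cone and gives rise to much of the placenta. The genes described here are the autosomal genes with at least 20 allele-assigned reads, maternal plus paternal, in each of the 2 control ExE libraries, and 6617 of the 24077 genes in the count table met that rule. The question was which of them were read more from the mother's or from the father's copy in the unperturbed placental lineage. Both control libraries were labelled wild type and Pcgf1/6 CTR, the controls of a series on embryos whose mothers lacked Pcgf1 and Pcgf6, subunits of variant Polycomb repressive complexes 1. The embryos were hybrids with B6.129 mothers and PWK fathers, so that reads could be assigned to a parent. Every ExE library used here came from this 1 direction of cross. An effect of the parent therefore cannot be told apart from an effect of the strain of that allele. The labels give neither the embryonic day, nor the sex of the embryos, nor whether the 2 libraries came from separate litters, so p-values measure only the spread between these samples. For comparison the text uses 2 control morula libraries of the same cross and genotype label, and 4 ExE libraries of the Pcgf1/6 double maternal knockout (matKO), also B6.129 x PWK.

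Genomic imprinting is the expression of a gene from the copy of 1 parent. Most imprinted domains are governed by DNA methylation laid down in the egg or sperm, often with a long noncoding RNA that silences neighbouring genes on its own chromosome. A further set of genes is silenced on the maternal copy through histone H3 lysine 27 trimethylation (H3K27me3) inherited from the oocyte, and this form of imprinting is best known from the extraembryonic lineages. Imprinted genes in trophoblast include growth promoters read from the father, such as Igf2, and growth restrainers read from the mother, such as Phlda2 and Cdkn1c.

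The promoters of 4 genes at the extremes are shown first: Sfmbt2 and Slc38a4, of the H3K27me3 class and read from the father, and Meg3, of the chromosome 12 imprinted domain, and Ascl2, of the distal chromosome 7 domain, both read from the mother. Each is the 250 bases before the most upstream start in the RefSeq promoter table of GRCm38.p6, 5′ to 3′ on the gene's strand, with every CG dinucleotide, the site of DNA methylation, in capitals. The windows are chr2:10370201-10370450 (plus strand) for Sfmbt2, chr15:97055957-97056206 (minus) for Slc38a4, chr12:109540746-109540995 (plus) for Meg3 and chr7:142969265-142969514 (minus) for Ascl2. The last 11 bases of the Sfmbt2 window lie inside the span that RefSeq gives the gene, and the other 3 windows lie outside it.
Sfmbt2: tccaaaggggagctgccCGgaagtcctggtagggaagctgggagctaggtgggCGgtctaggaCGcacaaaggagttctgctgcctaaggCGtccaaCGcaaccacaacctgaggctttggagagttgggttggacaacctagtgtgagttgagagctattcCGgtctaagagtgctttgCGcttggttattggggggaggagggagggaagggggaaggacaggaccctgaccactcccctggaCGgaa
Slc38a4: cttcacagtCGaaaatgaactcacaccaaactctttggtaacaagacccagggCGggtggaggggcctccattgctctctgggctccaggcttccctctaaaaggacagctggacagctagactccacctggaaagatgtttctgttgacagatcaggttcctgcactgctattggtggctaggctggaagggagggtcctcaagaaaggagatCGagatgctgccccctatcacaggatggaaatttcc
Meg3: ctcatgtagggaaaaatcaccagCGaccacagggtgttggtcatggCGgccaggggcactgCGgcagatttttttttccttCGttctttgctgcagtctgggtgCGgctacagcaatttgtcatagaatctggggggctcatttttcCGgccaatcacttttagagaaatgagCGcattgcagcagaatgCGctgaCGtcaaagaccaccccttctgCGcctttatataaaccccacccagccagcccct
Ascl2: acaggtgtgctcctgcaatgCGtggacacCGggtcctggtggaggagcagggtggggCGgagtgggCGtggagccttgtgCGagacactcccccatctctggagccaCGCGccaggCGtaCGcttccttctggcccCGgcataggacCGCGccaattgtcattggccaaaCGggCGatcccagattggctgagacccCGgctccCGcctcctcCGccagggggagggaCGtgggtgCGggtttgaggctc
The paternally read pair held 8 CG in the Sfmbt2 window and 3 in the Slc38a4 window. The maternally read pair held 10 in the Meg3 window and 19 in the Ascl2 window. Over the 5364 members with a listed promoter the median was 17 CG, against 6 over all 25748 promoters of the same length in the table, of which 92.0% held at least 1. At least 10 CG were present in 82.1% of the members' windows and in 38.9% of all windows. Of the imprinted genes known as paternally expressed and called so here, 6 had a listed promoter. None of their windows reached 10 CG and the median was 6. Of those known as maternally expressed and called so, 12 had a listed promoter, and the median was 20. These are counts of letters and say nothing of methylation, which was not measured here.

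The deposited counts gave 4219202 allele reads in control ExE replicate 1 and 4361832 in replicate 2. The autosomal maternal share was 51.4% in each, and it was 51.4% in both control morula libraries. In the matKO ExE libraries it was 51.2%, 51.3% and 51.5% in replicates 1, 2 and 4 but 35.1% in replicate 3, which stands apart. On the X chromosome, left out of the members, 95.8% and 96.4% of control ExE reads were maternal. Xist, the RNA of the silenced X, had 20 maternal and 254 paternal reads in replicate 1 and 7 and 128 in replicate 2. That is the pattern long known as imprinted inactivation of the paternal X in mouse trophoblast, and it runs with the labels of tissue and parent. Pcgf1 had no allele read in control ExE and could not be checked, and Pcgf6 had reads from both parents (819 maternal and 430 paternal, then 672 and 484).

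The tissue label was compared with marker genes. Trophoblast stem and ExE markers summed to 10213 and 9860 CPM (allele reads scaled to the allele total of each library), with 16 of 27 in the table passing the read filter, among them Elf5, Eomes and Tfap2c, while Cdx2 and Esrrb were below it and Bmp4 had no read. Decidual markers, which would bring RNA of the mother, summed to 47.6 and 20.9 CPM, 11 of the 22 had no read, and Prl8a2, Dcn and Col3a1 were at 0. Of the 19 blood and immune markers in the table none had a read. Only allele-assigned reads are counted here, so a marker at 0 is not shown to be unexpressed. Visceral endoderm markers summed to 26.8 and 14.7 CPM. Epiblast and mesoderm markers summed to 678 and 455 CPM, of which Dnmt3b and Utf1 passed the filter, and endothelial markers to 117 and 110 CPM, of which Egfl7 did.

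Of the 6617 members, 1992 (30.1%) differed between the alleles at an adjusted p under 0.05, 1091 toward the mother (16.5%) and 901 toward the father (13.6%). Here and below the test is edgeR's quasi-likelihood test with each library as a block and Benjamini-Hochberg adjustment over all members, and a log2 ratio is maternal over paternal after scaling to the autosomal total of each parent. Most called differences were small: the median log2 ratio was 0.99 for maternal calls and -0.71 for paternal calls, and 536 and 311 of them passed a 2-fold difference. The median maternal share over all members was 51.2%, with quartiles at 46.4% and 57.4%. At least 90% of reads came from 1 parent in both libraries in 167 genes, 113 maternal (1.71%) and 54 paternal (0.816%), and 18 of these 167 were on the lists of imprinted genes. Counted without the library block, 826 genes were called, and DESeq2 called 1000.

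**Figure D1:**
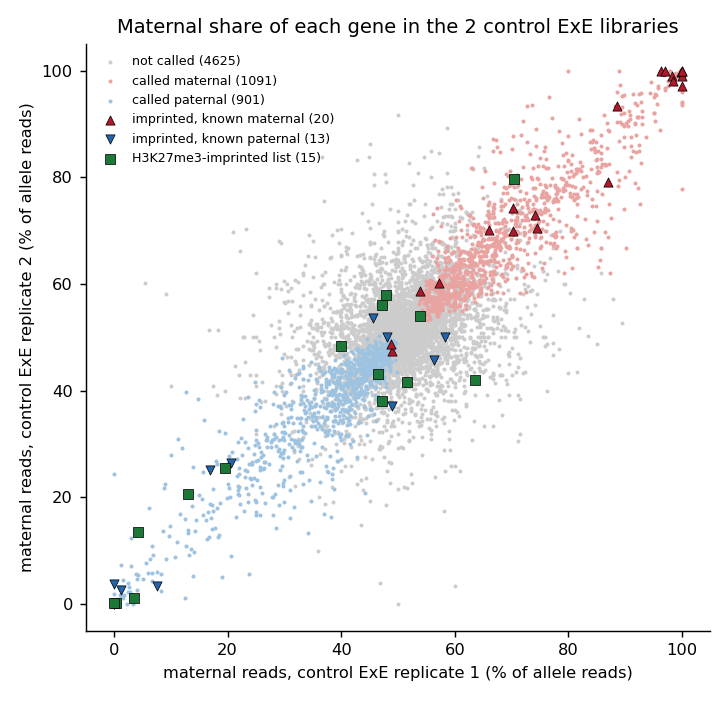
Each point is 1 of the 6617 members, placed by the percentage of its allele reads that were maternal in control ExE replicate 1 (horizontal axis) and replicate 2 (vertical axis); colours give the call and large symbols the 3 imprinted lists. Most genes lie near 50% in both libraries, and the called genes, 1091 maternal and 901 paternal, stretch to both corners, where many imprinted genes sit.

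The share could be read more finely where reads were many. The 2100 members with a mean of 20 to 100 allele reads differed between the libraries by a median of 7.93 percentage points and 16.7% were called. For the 1019 with at least 1000 reads the median difference was 1.37 points and 53.6% were called. A gene that was not called, above all a thinly read one, is therefore not shown to be balanced.

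Of the imprinted genes known as maternally expressed, 20 of 51 passed the read filter, and 16 were called maternal and none paternal. The median log2 ratio was 2.67 against -0.01 over all members, of which 16.5% were called maternal. All values here are allele reads. Phlda2 (chromosome 7, bases 143501545 to 143503145), a PH-domain gene that restrains placental growth, had 7462 maternal and 123 paternal reads in replicate 1 and 12677 and 259 in replicate 2. The log2 ratio was 5.65 ± 0.07 (SE, n = 2 libraries; edgeR adjusted p = 1.01e-09). Cdkn1c, an inhibitor of cyclin-dependent kinases, had 644 and 0 reads, then 716 and 1. H19, a noncoding RNA, had 1995 and 3, then 2553 and 8 (log2 ratio 8.58 ± 0.13, edgeR adjusted p = 3.58e-09). In each of these 3 genes under 3% of reads were paternal in both libraries.

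Ascl2, a basic helix-loop-helix factor required in the spongiotrophoblast, had 1491 maternal and 0 paternal reads in replicate 1 and 2004 and 22 in replicate 2 (log2 ratio 7.22 ± 0.34, edgeR adjusted p = 4.60e-05). All 22 paternal reads were in replicate 2, and the call was lost with TMM scaling (0.075) and with limma (adjusted p = 0.27). Grb10, an adaptor that dampens growth factor signalling, had 130 and 4, then 114 and 0 reads. Meg3, a noncoding RNA of chromosome 12, had 108 and 23 maternal reads and no paternal read, at least 41.3-fold more maternal against a floor of 3 counts over both libraries. Igf2r, the receptor that clears IGF2, had 31 and 4, then 28 and 2 reads (log2 ratio 3.17 ± 0.52, edgeR adjusted p = 0.0025). Igf2r was thus called on 65 reads in all, and its maternal shares of 88.6% (exact Clopper-Pearson 95% interval 73.3 to 96.8) and 93.3% (77.9 to 99.2) are the least precise of those given so far. These intervals and floors account for counting error alone, as no molecular identifiers are recorded.

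Known maternal genes with a partial lean were H13, Nap1l4, Dhcr7, Ctsd, Pon2 and Osbpl5. Ctsd, which encodes the lysosomal protease cathepsin D, had 70.2% and 70.0% maternal reads (log2 ratio 1.15 ± 0.08, edgeR adjusted p = 2.12e-05). H13, which encodes signal peptide peptidase, had 74.1% and 72.9%. Nap1l4, a histone chaperone gene, had 74.5% and 70.6%. Both libraries lay above 65% maternal for every gene of this group, and none of the 6 reached 90%. The 4 that were not called were Ube3a, Ago2, Commd1 and Blcap. Ube3a, known for maternal expression in neurons, stood at 48.8% in each library (172 and 125 allele reads).

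Of the imprinted genes known as paternally expressed, 13 of the 37 in the table passed the filter. Of these 8 were called paternal, against 13.6% of all members, and none maternal, with a median log2 ratio of -2.08. Peg10, a retrotransposon-derived gene needed for trophoblast, had 0 maternal reads against 276 and 456 paternal reads, at least 258-fold more paternal. Peg3, a zinc finger gene, had 0 maternal reads against 165 and 100 paternal reads (at least 93.5-fold). Zrsr1, a splicing factor retrogene inside Commd1, had 0 maternal reads against 104 and 49. None of these 3 genes had a maternal read in control ExE.

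Sgce, the neighbour of Peg10 on chromosome 6, had 3 maternal and 247 paternal reads, then 5 and 179 (log2 ratio -5.77 ± 0.30, edgeR adjusted p = 2.99e-06). Mest, which encodes a hydrolase-fold protein of mesoderm and placenta, had 6 and 74, then 1 and 28 reads. Cdh15, a cadherin gene, had 0 and 32, then 1 and 26. Igf2 and Kcnq1ot1 were paternal but not exclusively so. Igf2, the growth factor gene, had 173 maternal and 668 paternal reads in replicate 1 and 208 and 577 in replicate 2, which are maternal shares of 20.6% and 26.5% (log2 ratio -1.79 ± 0.12, edgeR adjusted p = 1.81e-05). Kcnq1ot1, the silencing RNA of the distal chromosome 7 domain, had 16.8% and 25.2% maternal reads (51 and 252, then 34 and 101). The library chemistry (SMART-Seq v4 cDNA, Nextera XT) does not mark strand, so reads of Kcnq1ot1 and of the overlapping Kcnq1, of Igf2 and Igf2os, and of Zrsr1 and Commd1 cannot be told apart where the genes overlap.

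The 5 paternal-list genes that were not called were Copg2, Impact, Zfp64, Bcl2l1 and Casd1. Impact, an inhibitor of the GCN2 stress kinase, had 24 maternal and 26 paternal reads, then 23 and 23. Zfp64 had 48.9% and 37.1% maternal reads (edgeR adjusted p = 0.06) and passed the threshold with TMM scaling (0.011) or with members down to 10 reads (0.039). Snhg14, the paternally expressed host transcript that runs antisense to Ube3a, was not on the list and was looked up as a neighbour of Ube3a: it had 2 maternal and 88 paternal reads, then 0 and 122.

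**Figure D2:**
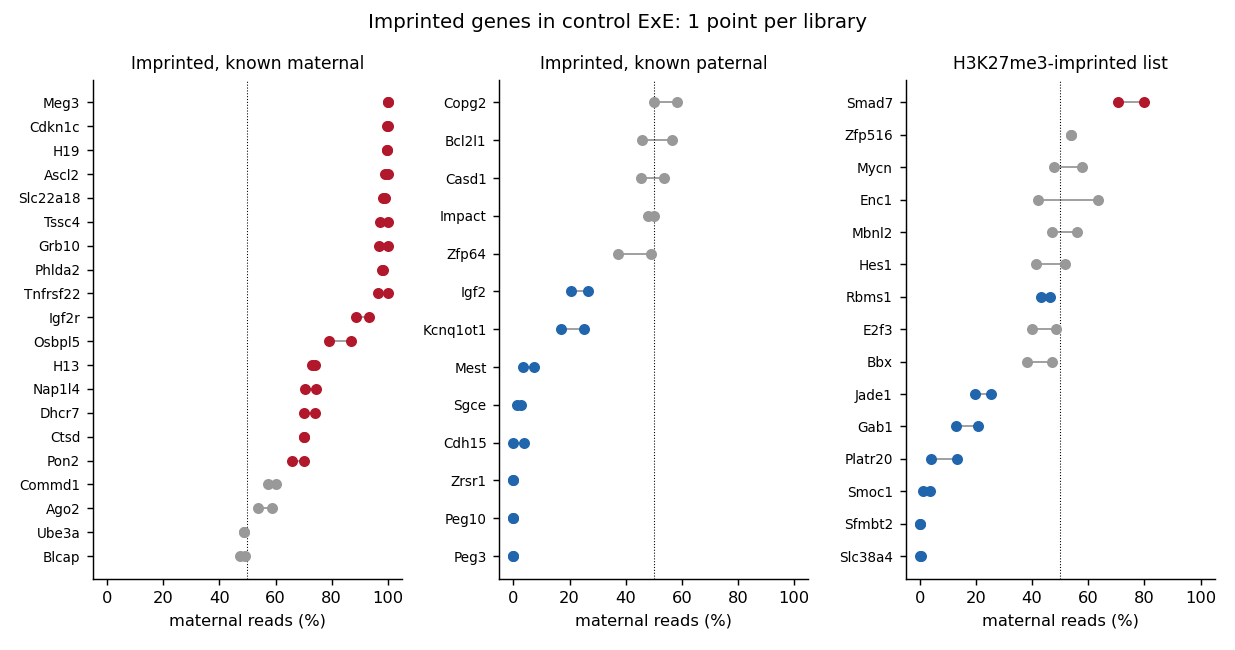
Maternal share of allele reads (horizontal axis, %) for each member of the 3 imprinted lists, 1 point per control ExE library joined by a line; red was called maternal, blue paternal and grey not called. The maternal list runs from Meg3 at 100% to genes at balance, the paternal list ends with Peg3, Peg10 and Zrsr1 at 0%, and the H3K27me3 list spans from Slc38a4 and Sfmbt2 near 0% to Smad7 above 70%.

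Genes reported as imprinted through maternal H3K27me3 ranged from almost no maternal reads to a maternal lean. Of 44 listed genes 15 passed the filter. Of these 7 were called paternal and 1 maternal, against 13.6% and 16.5% of all members, and the median log2 ratio was -0.43. Sfmbt2 (chromosome 2), a Polycomb-group gene needed for trophoblast, had 3 maternal and 1056 paternal reads in replicate 1 and 3 and 1069 in replicate 2 (log2 ratio -8.49 ± 0.17, edgeR adjusted p = 1.20e-08). Slc38a4 (chromosome 15), an amino acid transporter gene of the placenta, had 0 and 620, then 3 and 1010 reads. The scaled paternal to maternal ratio of Slc38a4 was 575 with a counting interval of 196 to 2791. Smoc1, which encodes a secreted matrix protein, had 3 and 81, then 1 and 80 reads. In Sfmbt2, Slc38a4 and Smoc1 the maternal share stayed under 4% in both libraries.

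Gab1, an adaptor of receptor tyrosine kinases required in the placenta, leaned less. It had 187 maternal and 1242 paternal reads in replicate 1 and 345 and 1321 in replicate 2, maternal shares of 13.1% and 20.7% (log2 ratio -2.37 ± 0.15, edgeR adjusted p = 1.80e-05). Jade1, a subunit of a histone acetyltransferase complex, had 79 and 324, then 125 and 365 reads, or 19.6% and 25.5% maternal. Platr20, a noncoding RNA, had 1 and 23, then 7 and 45. Rbms1, an RNA-binding protein gene, was called at a log2 ratio of only -0.39 ± 0.11. Smad7, an inhibitor of TGF-beta signalling, leaned the other way with 70.5% and 79.7% maternal reads (43 and 18, then 55 and 14; edgeR adjusted p = 0.01). The other 7 were not called: Bbx, E2f3, Hes1, Mbnl2, Zfp516, Enc1 and Mycn. Bbx, an HMG-box gene, had 90 and 101, then 32 and 52 reads.

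Several of these calls rest on the spread between only 2 libraries. With either control library left out, the spread is taken from the 4 matKO libraries. There Sfmbt2 was 0.198%, 0.357% and 0.180% maternal in matKO replicates 1 to 3 and 48.5% in replicate 4. The Sfmbt2 log2 ratio stayed at -8.49 and -8.48 with 1 control library, and its adjusted p was 0.42 and 0.43. Gab1 (0.37 and 0.26), Slc38a4 (0.11 and 0.13), Smoc1 (0.28 and 0.31), H19 (0.18 and 0.19), Peg10 (0.14 and 0.18), Sgce (0.33 and 0.26), Kcnq1ot1 (0.21 and 0.067) and Osbpl5 (0.15 and 0.051) likewise missed the threshold in edgeR without replicate 1 and without replicate 2, in that order. Before scaling, not all of these genes varied widely in matKO: Kcnq1ot1 was between 15.7% and 22.9% maternal there. The 22.9% is of replicate 3, where 35.1% of all autosomal reads were maternal. Jade1 was lost without replicate 1 (0.082) and Smad7 (0.11) and Rbms1 (0.28) without replicate 2. Of the H3K27me3 list 2 paternal calls remained in count each time, and of the paternal list 5 without replicate 2.

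Distal chromosome 7 holds the H19-Igf2 and Kcnq1 domains side by side, and 20 members lay between Tollip and Dhcr7. Of these 13 were called maternal, 3 paternal and 4 neither, against 16.5% maternal and 13.6% paternal over all members. From low to high coordinates, H19, Ascl2, Tssc4, Cdkn1c, Slc22a18, Phlda2 and Tnfrsf22 each had at least 90% maternal reads in both libraries. Tssc4, a spliceosome assembly gene, had 110 maternal and 0 paternal reads, then 66 and 2. Slc22a18, an organic cation transporter gene next to Phlda2, had 109 and 2, then 196 and 2. Tnfrsf22, a decoy receptor gene, had 53 and 2, then 60 and 0. The paternal genes Igf2, Igf2os and Kcnq1ot1 sit among them. Igf2os, antisense to Igf2, had 9 and 41, then 11 and 30 reads.

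Other members of this region had a partial lean or were not called. Of these, Nap1l4 and Cars lie between Phlda2 and Tnfrsf22, not at an edge. Osbpl5 had 20 maternal and 3 paternal reads, then 19 and 5. Nap1l4, directly beside Phlda2, was at 74.5% and 70.6%, and Cars, the next member, was at 57.6% and 52.3% and was not called (log2 ratio 0.22, edgeR adjusted p = 0.29). At the low-coordinate end Tollip, a Toll-like receptor adaptor that is on no imprinted list, had 215 and 36, then 306 and 56 reads (log2 ratio 2.42, edgeR adjusted p = 1.32e-05). Tollip was 79.9% maternal in both control morula libraries. Mrpl23, a mitochondrial ribosomal protein gene beside H19, had 32 and 5, then 30 and 13 reads. Tollip and Mrpl23 are named for their position, chosen after their values were seen.

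**Figure D3:**
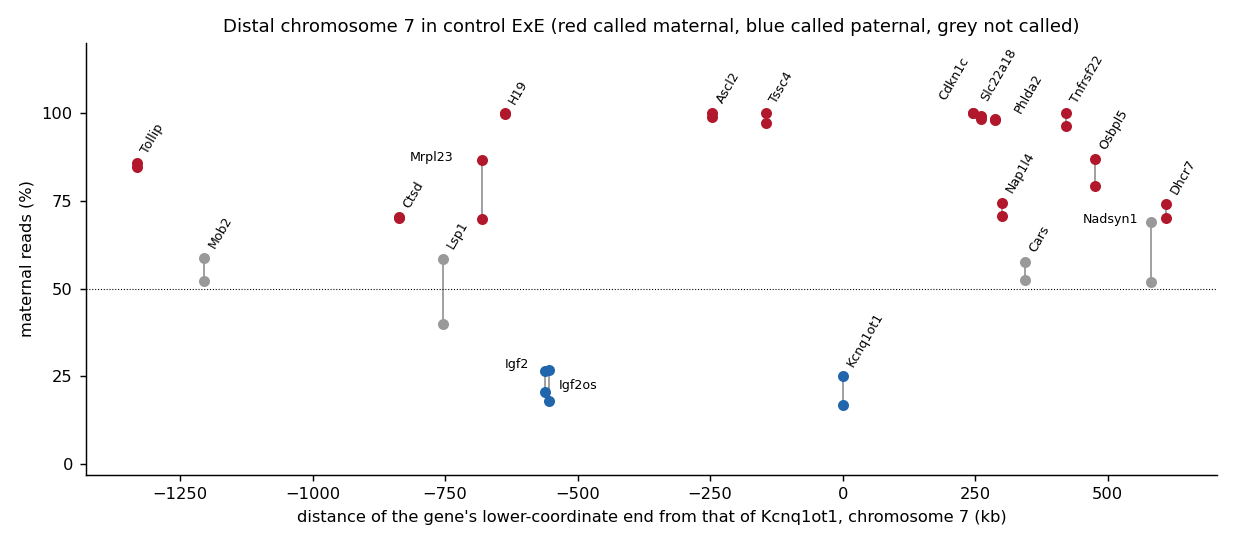
Maternal share of allele reads (vertical axis, %) in the 2 control ExE libraries for the 20 members of distal chromosome 7, placed by distance in kb from Kcnq1ot1; red was called maternal, blue paternal and grey not called. The 7 genes from H19 to Tnfrsf22 that are at least 90% maternal flank Igf2, Igf2os and Kcnq1ot1, which lie between 16.8% and 26.8%.

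Around imprinted genes in general no such pattern was measured. Within 1 Mb of a gene on the maternal or paternal imprinted list lay 234 members that were themselves on none of the lists. Of these 36 were called maternal and 34 paternal, 29.9% in all against 30.1% of all members. Around the H3K27me3 list genes 47 and 31 of 234 were called (33.3%). Members near the maternal and paternal lists with at least 90% of reads from 1 parent were Csnk2a1, Lamtor1 and Npc1 (maternal) and Snhg14 and Rpl13 (paternal). Near the H3K27me3 list they were Hspd1, Hspe1, Lrp6, Rpl14-ps1 and Ktn1, all maternal. Hspd1 and Hspe1, which encode the mitochondrial chaperonins and share 1 promoter region, had 1965 maternal and 5 paternal and then 1790 and 4 reads, and 1230 and 11 and then 1452 and 9.

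Of the 16 tested trophoblast stem and ExE markers 3 were called maternal and 3 paternal, with a median log2 ratio of -0.06. Over all members 30.1% were called. Elf5, the transcription factor that secures trophoblast identity, had the widest lean, with 428 maternal and 866 paternal reads, then 546 and 1124. Its maternal shares were 33.1% and 32.7% (log2 ratio -1.11 ± 0.07, edgeR adjusted p = 6.91e-06). Fgfr2, the FGF4 receptor of trophoblast stem cells, had 43.9% and 43.7% maternal reads. Krt8, a keratin gene of simple epithelium, was called at -0.21 ± 0.05 and lost that call with either library left out. Toward the mother, Tfap2c, an AP-2 factor, had 1239 and 844, then 1576 and 1034 reads (log2 ratio 0.50 ± 0.05, edgeR adjusted p = 0.00024). Gata2 (log2 ratio 0.65) and Ddah1 (0.35) were called too. Krt18, the partner of Krt8, was not called (11148 and 11870, then 13119 and 11593). With 1 control library left out, Elf5 (edgeR adjusted p = 0.45 and 0.48), Fgfr2 (0.13 and 0.086) and Gata2 (0.12 and 0.52) missed the threshold each time and Ddah1 without replicate 2 (0.11). Elf5 was 28.6%, 29.9%, 32.4% and 53.6% maternal in the 4 matKO libraries, before scaling. The 32.4% is of replicate 3, where 35.1% of all autosomal reads were maternal.

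The other marker lists held few tested genes. Among the ectoplacental genes Ascl2, Phlda2, Cdkn1c, Sfmbt2 and Igf2 were called, and these are also on the imprinted lists, with the values given above. Hand1, the only giant cell gene tested, was not called. Neither decidual gene tested was called: Cd55 had 33 and 33, then 26 and 17 reads, and Fstl1 19 and 8, then 11 and 11. Dab2, an endocytic adaptor of visceral endoderm, was called paternal (25 and 69, then 10 and 43). Dnmt3b, the de novo methyltransferase, was called maternal at 0.31 ± 0.07 and Utf1 was not called. Egfl7, a secreted protein of endothelium, was called maternal at 0.45 ± 0.13. Without replicate 2 the calls of Egfl7 (edgeR adjusted p = 0.25), Dnmt3b (0.084) and Dab2 (0.070) were lost.

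Outside the imprinted lists the widest leans reached the range of the most one-sided imprinted genes. On the maternal side Asf1b, a histone chaperone gene of chromosome 8, had 495 and 459 maternal reads and no paternal read, at least 301-fold. Gmfb (391 and 496), Mrpl3 (375 and 393), Gatad2a (268 and 292), Mterf3 (278 and 280), Atp6v1b2 (226 and 321), Spsb3 (202 and 264) and Ints10 (157 and 228) also had no paternal read. Rrp9, a component of the U3 ribonucleoprotein, had 1065 and 0, then 903 and 1. Fth1, the ferritin heavy chain, had 2608 and 2, then 2685 and 2 reads. In all 10 the paternal reads were at most 2 in a library.

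On the paternal side Pgam1, a glycolytic phosphoglycerate mutase, had no maternal read against 1158 and 960 paternal reads, at least 747-fold. Tmed2 (295 and 399) and Stmn1 (156 and 192) also had no maternal read. Rps29, of the small ribosomal subunit, had 1 and 2948, then 0 and 3362. Rpl19, of the large subunit, had 7 and 5147, then 16 and 5882. Ube2s, Ptma, Timm23, Set and Rpl13 complete the 10. Ptma, which encodes prothymosin alpha, had 2 and 1390, then 4 and 1365, and Set, a histone chaperone gene, 3 and 816, then 1 and 899. In all 10 under 1% of reads were maternal in each library.

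Genes with near-identical copies are among them, and how reads of such copies were assigned is not given in the sources used here. Cytoplasmic ribosomal protein genes and genes with a pseudogene named after them made up 3.32% of all members, 12.4% of the 113 mainly maternal genes and 25.9% of the 54 mainly paternal ones. Of the 10 paternal genes above, the annotation names 12 such copies of Rpl19, 6 of Rpl13, 2 each of Pgam1 and Ptma and 1 of Rps29. It names none of Tmed2, Stmn1, Ube2s, Timm23 or Set, and none of the 10 maternal genes above. The part of these copies, and of the strain, in the lean of any of these genes was not tested.

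Some of the mainly maternal genes were neighbours. Runs of at least 3 consecutive members with at least 90% of reads from the same parent in both libraries, a measure chosen after the values were seen, numbered 6, and all 6 were maternal. The Cdkn1c, Slc22a18 and Phlda2 run is the imprinted one. On chromosome 8 the runs were Ints10, Lpl and Atp6v1b2 (bases 68793929 to 69113718), Ndufa13, Gatad2a and Sugp1 (69894163 to 70072347) and Cherp, Slc35e1 and Smim7 (72460483 to 72571048). On chromosome 14 Cdkn3, Gmfb, Gch1 and Ktn1 made a run (46760461 to 47736564), and on chromosome 17 Hagh, Nubp2, Spsb3 and Eme2 (24839781 to 24895087). Positions are those of RefSeq on GRCm38.p6.

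The chromosome 8 stretch from the first run to the last held 25 members, of which 10 were at least 90% maternal. In this stretch 11 were called maternal, 3 paternal and 11 neither, against 16.5% maternal and 13.6% paternal over all members. Lpl, the lipoprotein lipase gene, had 181 maternal and 0 paternal reads, then 367 and 1. Ndufa13, a subunit of respiratory complex I, had 525 and 0, then 513 and 2. On chromosome 14 Gch1, the entry enzyme of tetrahydrobiopterin synthesis, had 122 and 134 maternal reads and no paternal read. On chromosome 17 Nubp2, an iron-sulphur cluster assembly gene, had 2295 and 1, then 2364 and 3. In control morula, among those with enough reads, 4 of the 5 mainly maternal genes of the chromosome 8 stretch were mainly maternal too. On chromosomes 14 and 17 this held for 1 of 4 each. Chromosome 8 had the highest share of members with at least 90% of reads from 1 parent, 21 of 339 (6.19%). Genes entered a run only at 90% or more maternal reads in both libraries, so few paternal reads there follow from that rule.

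**Figure D4:**
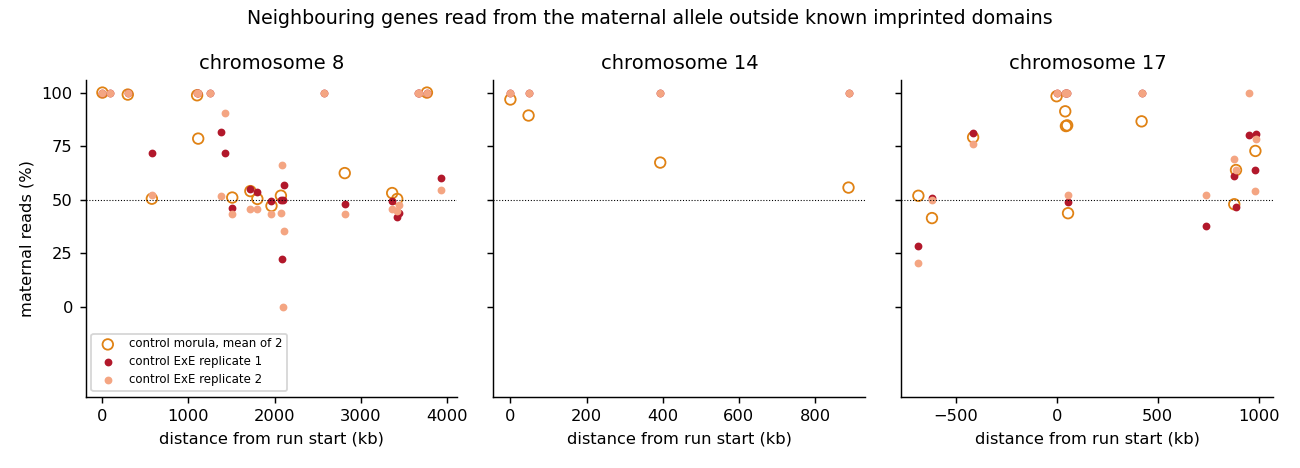
Maternal share of allele reads (vertical axis, %) of members within 1 Mb of the runs on chromosomes 8, 14 and 17, by distance in kb from the start of the run; filled points are the 2 control ExE libraries and open circles the mean of the 2 control morula libraries. All genes of the chromosome 14 and 17 runs lie near 100% in ExE, while in morula Gch1 and Ktn1 lie near 67% and 56%.

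Control morulae of the same cross show how far the leans were shared. Both stages had 5699 genes with at least 20 allele reads in each library. Of 969 maternal calls in ExE 459 were maternal in morula too, 47.4% of the ExE calls and 64.1% of the 716 morula calls, and 29 were called paternal there. Of 823 paternal calls 296 were shared, 36.0% of the ExE calls and 49.7% of the 596 morula calls, and 21 were called maternal there. A test of the allele by stage term found 697 genes (12.2%) whose allele ratio differed, 371 more maternal in ExE (6.51%) and 326 more paternal (5.72%). Among the imprinted lists 8 of the 29 genes with reads at both stages differed.

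Smoc1 was among them: 30.0% and 38.7% maternal in morula against 3.57% and 1.23% in ExE (difference -4.28 ± 0.70, edgeR adjusted p = 0.0035). Sgce was at 52.9% and 45.3% in morula and 1.20% and 2.72% in ExE (-5.60 ± 0.47). Tssc4 was at 48.6% and 40.0% in morula and 100% and 97.1% in ExE (6.54 ± 0.72). Igf2r went from 67.5% and 52.4% to 88.6% and 93.3%, a difference lost with any 1 of the 4 libraries left out (edgeR adjusted p from 0.063 to 0.19). These 4 genes were nearer to balance in morula and more one-sided in ExE. Ctsd differed by 0.77 ± 0.09.

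The other 3 imprinted-list genes that differed ran the opposite way, paternal in morula and not called in ExE. Bbx had 62 maternal and 329 paternal reads, then 20 and 260, in morula, 15.9% and 7.14% maternal against 47.1% and 38.1% in ExE (difference 2.53 ± 0.39, edgeR adjusted p = 0.0025). Impact had 48 and 363, then 36 and 267 reads in morula, or 11.7% and 11.9% maternal against 48.0% and 50.0% in ExE (2.84 ± 0.30, edgeR adjusted p = 0.00026). Zfp64, a zinc finger gene, was at 22.3% and 24.8% in morula against 48.9% and 37.1% in ExE (1.32 ± 0.29, edgeR adjusted p = 0.019). The Bbx difference missed the threshold without ExE replicate 1 (0.12), and that of Zfp64 without ExE replicate 1 (0.081), morula replicate 1 (0.22) or morula replicate 2 (0.085). Impact kept its call in each of these fits.

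Other imprinted genes were one-sided at both stages. Sfmbt2 had 1 maternal and 124 paternal reads, then 0 and 167, in morula. Zrsr1 had 0 and 103, then 1 and 112. Slc38a4 had 2 and 82, then 0 and 82. Jade1 had 20.4% and 20.3% maternal reads in morula (difference 0.20 ± 0.26). Gab1 had 31.7% and 39.8% in morula, and the difference of -1.46 ± 0.36 missed the threshold (edgeR adjusted p = 0.081). Meg3 was 96.6% and 95.7% maternal in morula. H19, Peg10, Igf2, Phlda2, Cdkn1c, Ascl2 and Grb10 had too few reads in morula for the test, and H19 had none.

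Outside the lists most of the widest stage differences were of genes one-sided in ExE and mixed in morula. The exceptions were Pgam1, paternal at both stages, and Rassf4. Rps29 was 26.7% and 22.8% maternal in morula, Ube2s 32.7% and 32.1% and Set 31.1% and 30.2%, and all 3 were under 1% in ExE. Stmn1 had 21 maternal and 79 paternal reads, then 23 and 92, in morula and no maternal read in ExE. Pgam1, with 2 and 48, then 0 and 39 in morula, missed the threshold with any 1 library left out. Toward the mother, Mrpl3 was at 46.0% and 61.8%, Asf1b at 65.7% and 69.8% and Gatad2a at 78.3% and 78.8% in morula, against 100% in ExE. H2-Ab1, a class II histocompatibility gene, was at 32.3% and 20.9% in morula and had 192 and 0, then 83 and 1 reads in ExE. Rassf4 ran the other way, with no maternal read in morula (66 and 51 paternal) and 17 and 41, then 74 and 72 reads in ExE.

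**Figure D5:**
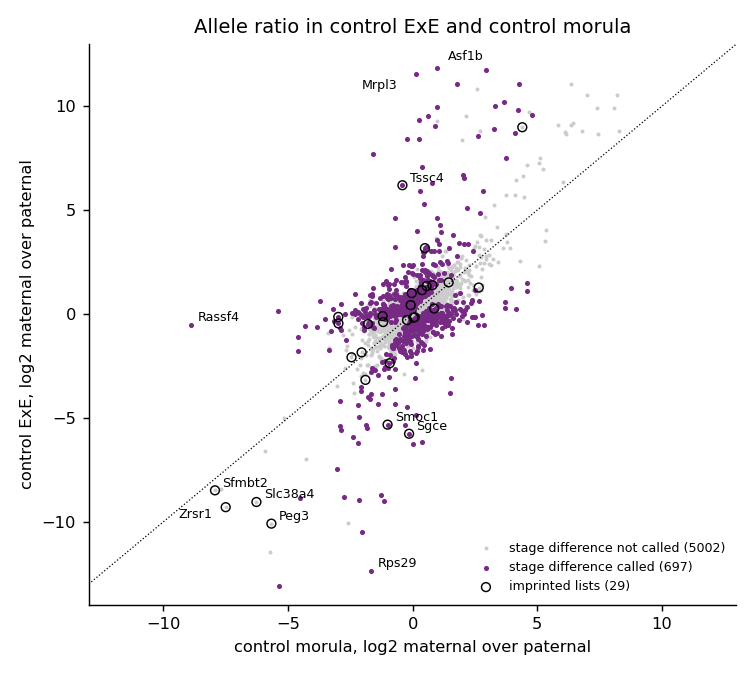
Log2 maternal over paternal ratio of the 5699 genes read at both stages in control morula (horizontal axis) and control ExE (vertical axis); purple points differ between the stages, open circles are the imprinted lists and the dotted line marks equal ratios. Sfmbt2, Slc38a4, Zrsr1 and Peg3 are low on both axes, while Smoc1, Sgce and Tssc4 lie near 0 in morula only.

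The stage comparison has a limit in the counts themselves. The highest count of any gene in a morula allele column was between 1443 and 1537, all for Timd2, against 17320 to 19290 in ExE, and the 100 highest genes held 7.90% to 8.63% of a morula column against at least 21.7% of an ExE column. Of the 113 mainly maternal genes 88 had enough morula reads, and 43 of these differed by stage. Of the 54 mainly paternal genes 45 had, and 34 differed. All of these differences were toward a more one-sided ExE, a direction that choosing the genes at 90% in ExE fixes almost by itself. Their median morula maternal shares were 87.7% and 19.8%. The part of the count range in these differences was not tested.

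The 4 matKO ExE libraries, which did not enter the calls, gave the same direction for most genes. Of 1034 maternal calls testable in both 934 (90.3%) were called maternal in matKO, 67.4% of its 1385 maternal calls, and 1 was called paternal. Of 865 paternal calls 754 (87.2%) were shared, 57.6% of the 1308 in matKO, and 1 was called maternal. The allele by genotype term called 5 of 6102 genes (0.0819%) in edgeR, 3 more maternal in matKO (0.0492%) and 2 more paternal (0.0328%), with 402 at an unadjusted p under 0.05. Without matKO replicate 3, the library at 35.1% maternal, 12 were called, the 5 among them. The count rose alike without replicate 2 (13) and without replicate 4 (14), again with the 5 among them.

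Thoc1, an mRNA export gene, was the clearest of the 5: it had 4 maternal and 114 paternal reads, then 3 and 169, in control ExE but 50.3%, 53.6%, 37.1% and 50.6% maternal in matKO. It was at 40.2% and 52.9% in control morula, so its lean was measured in the 2 control ExE libraries only. Thoc1 and Pcgf6 stayed called with any 1 of the 6 libraries left out. Platr20 was at 47.8%, 45.0%, 35.9% and 50.0% in matKO, and its difference of 3.01 was lost without either control library (edgeR adjusted p = 0.13 and 0.16). Igf2 was called paternal in matKO as well, from 17.1% to 32.8% maternal, and Phlda2 maternal, from 92.2% to 99.7%. Both lower ends were in replicate 3. The matKO shares here and below are unscaled, and 35.1% of the autosomal reads of replicate 3 were maternal.

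The 7 paternal calls of the H3K27me3 list were not called in the 4 matKO libraries taken alone, where 44.1% of 6240 genes were called. Jade1 was between 39.3% and 57.9% maternal there (edgeR adjusted p = 0.78) and Gab1 between 20.1% and 56.1% (0.58). Smoc1 ranged from 6.33% to 82.6% (0.58), and Slc38a4 from 3.6% to 32.4% (0.079). Sfmbt2 (0.20), Platr20 (0.62) and Rbms1 (0.19) missed the threshold too, in Sfmbt2 with 3 libraries under 1% and 1 at 48.5%. The difference between matKO and control ExE was called for Platr20 but not for the other 6 in edgeR (adjusted p from 0.49 to 0.94), so no difference by genotype is shown for these 6, nor is one excluded. Smad7 was called maternal in matKO (0.0063). Missing the threshold in matKO alone was not limited to the H3K27me3 list, and a missed threshold is not a lost lean. H19 was between 80.4% and 99.9% maternal there (edgeR adjusted p = 0.076). Peg10 was between 0% and 18.8% (0.091) and Sgce between 0% and 25.5% (0.13). Elf5 (0.26) missed the threshold as well. Peg3, Mest, Zrsr1 and Kcnq1ot1 were still called paternal.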

How the data were processed

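Libraries were made with SMART-Seq v4 and Nextera XT, per the labels' protocols. The authors deposited whole-number counts of reads per gene and allele, per the file headers. The submitters' processing notes name, among others, Trim Galore 0.6.4, STAR 2.7.3, RSEM 1.3.1 and mm10. The counting tool and the rule that assigned reads to alleles were not given in the sources used here. Of 24077 symbols 23975 matched RefSeq GRCm38.p6, 81 did through a synonym and 21 did not.

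Members were fitted with edgeR 4.0.16 (quasi-likelihood, robust; library and allele terms; offsets at each allele column's autosomal total; calls at an adjusted p under 0.05). DESeq2 1.42.0 and limma 3.58.1 were alternatives. The library is the block, since both alleles were counted in it, and deviations of its maternal and paternal columns correlated at 0.464 across members. The replicates differed by more than sampling noise (chi-square per degree of freedom 14.7). Named genes are the called imprinted genes, a fixed core, the 10 widest leans per parent outside the lists with a mean of at least 100 reads, up to 4 genes per marker list and 5 stage differences per direction. Members and lists were chosen with earlier results of these data known. For genes without reads from 1 parent a bound against 3 counts is printed, since the fitted ratio depends on a prior count. In the lower library, 315 members had 20 to 24 reads and 335 genes just outside had 15 to 19.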

Additional observations from a re-analysis of the deposited data

Results flagged for a closer look

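The following allele ratios differed between groups by a test of the difference itself. All values are log2 differences. For genes without reads from 1 parent in a stage the size depends on the prior count of the fit and only the direction should be read.

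Between control ExE and control morula, imprinted genes more maternal in ExE were Tssc4 (6.54), Igf2r (2.65) and Ctsd (0.77), with Impact (2.84), Bbx (2.53) and Zfp64 (1.32), which were paternal in morula, and more paternal were Sgce (-5.60) and Smoc1 (-4.28). Among other genes more paternal in ExE were Rps29 (-10.57), Stmn1 (-7.92), Ube2s (-7.82), Set (-7.44), Pgam1 (-7.13), Rpl19 (-6.82) and Timm23 (-6.04). Thoc1 (-5.06), Mdk (-4.66), Rpl13 (-4.40), Ptma (-4.32), Tmem50b (-2.24), Dab2 (-1.63), Dnmt3b (-0.69) and Acaa2 (-0.65) were also more paternal. More maternal in ExE were Mrpl3 (10.87), Asf1b (10.33), Rassf4 (9.24), H2-Ab1 (9.17), Gatad2a (8.77), Gch1 (8.46), Gmfb (8.26), Ktn1 (7.66), Nubp2 (6.70), Fth1 (6.51) and Mterf3 (6.28). Without 1 of the 4 libraries, the calls of Bbx, Zfp64, Igf2r, Pgam1, Dnmt3b, Nubp2 and Ptma were lost at least once.

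Between matKO and control ExE the ratio of Thoc1 (5.39), Platr20 (3.01) and Acaa2 (0.57) was more maternal in matKO, and that of Pcgf6 (-1.26) and Tmem50b (-0.56) more paternal. The autosomal maternal share of matKO ExE replicate 3, at 35.1%, stood apart from the other 3, which lay between 51.2% and 51.5%. The gap test used here marks about 1 in 20 groups by chance at its threshold.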

How the results depend on the processing

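No called named gene changed direction under any alternative run. Of 1992 calls (1091 maternal, 901 paternal), DESeq2 kept 1000 (600 and 400), and an adjusted p under 0.01 kept 1272, of which 528 paternal. Without the replicate block, that is without pairing the alleles by library, 826 were called (529 and 297), all among the 1992. Calls lost without the block included Nap1l4, Dhcr7, Fgfr2, Gata2, Ddah1, Rbms1, Krt8, Tfap2c, Dab2, Dnmt3b, Egfl7, Tmem50b, Acaa2 and Mrpl23. With 1 control library left out, 1355 to 1364 were called, 784 to 793 maternal and 562 to 580 paternal; those fits take their spread from the matKO libraries. Without an offset between the alleles the median ratio moved by 0.08 and 2076 were called (1342 and 734), 64.6% maternal against 54.8%. Genes with at least 80% of reads from 1 parent numbered 202 maternal and 94 paternal. The stage difference was called for 241 genes by DESeq2 (134 more maternal, 107 more paternal). With 1 library left out it was called for 294 to 385 (168 to 217 and 126 to 182). The matKO difference was called for 4 to 14 genes with 1 library left out. Left out after seeing the data, runs of neighbours or ribosomal genes and genes with named copies ended no named gene's call. DESeq2 lost 27 named calls, among them Peg3, Meg3, Zrsr1, Pon2, Osbpl5, Smad7, Rbms1, Gatad2a, Mterf3, Spsb3 and Stmn1. With the spread shared with matKO Peg10, Gab1, Sfmbt2, Smoc1, Sgce, Krt8, Elf5 and Gata2 were lost. Limma lost Slc38a4, Ascl2, Rps29, Timm23, Rrp9, Lgals1, Gata2 and Ndufa13. For the other tools' lost calls the cause was not tested. The 2 libraries of 1 cross limit every call.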
